A study of Petromyzon marinus with 12 samples.

Results

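The endostyle of the sea lamprey (Petromyzon marinus) was compared between stage T29 and stage T27, 2 stages apart in a series of 4 stages named T27, T28, T29 and T30. The comparison rests on 6 of the 12 libraries of the series, with 3 libraries at T29 and 3 at T27, chosen by the stage in each library's label, and it covers every gene row with enough counts to test. Both groups were wild-type endostyle tissue with no genetic change or agent named in the labels, so stage was the only difference the labels name. Each stage has its own libraries, so any unlabelled difference between the groups cannot be told apart from stage. The staging scheme is not explained in the labels. They also do not say that the 3 libraries of a stage came from different animals, so p-values here reflect the spread among libraries, which may be technical.

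The endostyle is a groove of glandular and ciliated epithelium beneath the pharynx, found in tunicates, lancelets and larval lampreys. Its ciliated cells move a sheet of mucus that traps food, its gland cells secrete proteins into the groove, and some of its cells bind iodine as thyroid follicle cells do. In lampreys the organ gives rise to the thyroid at metamorphosis. Genes for hormone production, cilia, secretion and cell division are therefore the ones through which growth and differentiation of the organ can be followed in RNA.

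Values are CPM, read counts relative to library size with TMM scaling, and means carry the SD of 3 libraries. Differences are log2 changes of T29 over T27 from edgeR's quasi-likelihood model with their standard errors (SE). A gene is said to have risen or fallen at T29 where its p-value, adjusted by the Benjamini-Hochberg method over the 16526 genes tested, was under 0.05. The T29 libraries held 33681162 to 36032488 counts and the T27 libraries 31038776 to 32511089. Genes of the mitochondrial genome took 1.70% to 2.06% of the counts at T29 and 1.57% to 1.68% at T27. The iodide transporter gene SLC5A5 and the endoderm regulators PAX2, HHEX and FOXA2, which mark the thyroid and its precursors in vertebrates, had counts in all 6 libraries.

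T27 replicate 1 stood apart from the other T27 libraries. On the first principal component of T27, T28 and T29, which held 61.4% of the variance, the T29 libraries lay between 43.0 and 49.6, the T28 libraries between 8.54 and 11.1, and T27 replicates 2 and 3 at −66.6 and −64.8, with T27 replicate 1 at −37.4, the T27 library nearest to T28. Among the genes that changed, this library was the T27 library on the T29 side for 54% of them and the one farthest from T29 for 14%. Without it 7004 genes changed, against 7640 with it, and 6767 genes were called both ways. Folds printed below that moved by over 1.5 times without it are given both ways.

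**Figure D1:**
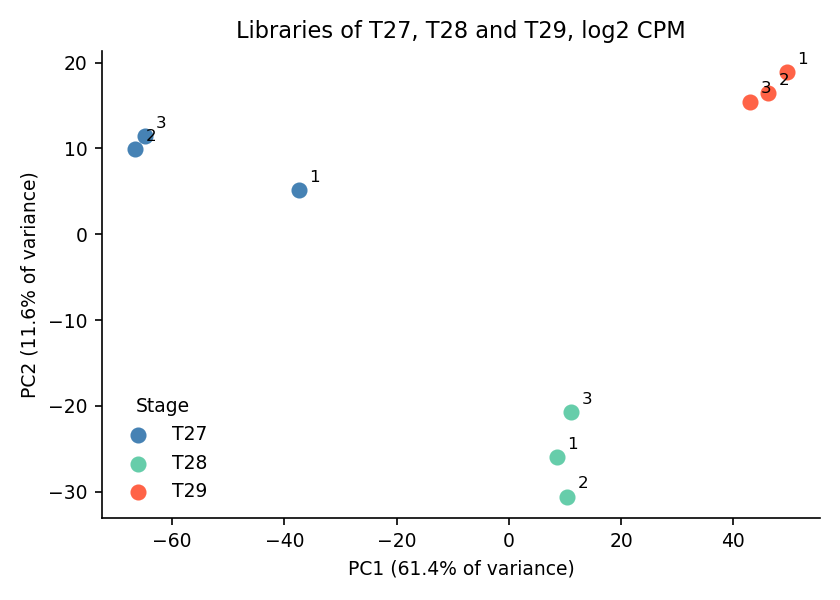
First 2 principal components of log2 CPM in the 9 libraries of T27, T28 and T29; each point is a library, its number is the replicate, and colour gives the stage. T29 libraries lie at 43.0 to 49.6 on the first component, and T27 replicate 1, at −37.4, lies nearer to T28 than the other T27 libraries.

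Between T27 and T29 the endostyle tissue gained RNA of cilia, of the respiratory chain, of secretory transport and of a few hormone genes. It lost RNA of cell division and of many signalling and matrix genes. Among the gene lists described below, the largest median rises were those of muscle and pigment cell markers (log2 changes of 1.91 and 1.55). Of the 16526 genes tested, 7640 (46.2%) changed. At T29 3831 genes (23.2%) were higher and 3809 (23%) lower, with a median log2 change of −0.03 over all genes. Changes under 2-fold were more often falls (3245, against 2281 rises), and large ones were mostly rises. Over 2-fold, 1550 genes rose and 564 fell, and over 4-fold, 565 rose and 81 fell. The libraries of the 2 stages did not overlap for 9233 genes (55.9%). In bulk RNA, here and below, a change in the number of cells of a type and a change in RNA per cell cannot be told apart.

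Most large rises were in rows that carry only a locus number: of the 565 genes that rose over 4-fold, 480 had no name and 85 had one. Among the 6422 named genes tested, 1369 (21.3%) rose and 1746 (27.2%) fell, and among the 10104 rows without a name 2462 (24.4%) rose and 2063 (20.4%) fell. With a fold limit of 1.2 built into the test, 4724 genes changed, 2708 higher and 2016 lower.

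The named genes with the highest folds were picked among those with a mean of at least 1 CPM and no overlap between the stages. TYRP1, ERMN, GPNMB and DCT led them, and TYRP1, GPNMB and DCT are given below with the pigment cell genes. Others included a transporter, receptors and genes of cilia. SLC7A11, the cystine and glutamate exchanger of the plasma membrane, had 10.98, 10.2 and 5.37 CPM in the T29 libraries, against 0.543, 0.714 and 0.969 CPM in the T27 libraries. T29 replicate 3 was the lowest of its stage, and SLC7A11 rose 12.03-fold (log2 change 3.59, SE 0.32; adjusted p = 8.67e-07). PTH1R, a receptor for parathyroid hormone and its relatives, had 5.91, 5.37 and 2.46 CPM in the T29 libraries, against 0.483, 0.0931 and 0.2 CPM in the T27 libraries. It rose 17.3-fold, or 30.9-fold without T27 replicate 1, the highest of the T27 values. GPR149, an orphan receptor of the G protein-coupled class, had 4.71, 3.94 and 2.12 CPM in the T29 libraries, against 0.271, 0.031 and 0.0668 CPM in the T27 libraries. ERMN, an actin-binding protein known from mammalian oligodendrocytes, had 4.03, 2.27 and 1.2 CPM in the T29 libraries, against 0.121, 0 and 0.0668 CPM in the T27 libraries, on 263 counts at T29 and 6 counts at T27, so its fold is imprecise.

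C45H20orf85, the lamprey counterpart of a human gene of ciliated cells, had 16.5, 16.2 and 14.1 CPM in the T29 libraries, against 1.39, 0.652 and 0.635 CPM in the T27 libraries (log2 change 4.11, SE 0.20). SAMD15 had 40.9, 50.4 and 42.7 CPM in the T29 libraries, against 6.12, 2.89 and 3.37 CPM in the T27 libraries (log2 change 3.43, SE 0.21). Both genes were low at T27 in each library and T27 replicate 1 was the highest of the 3. AMPD1, which deaminates AMP in muscle, rose 15.5-fold to 9.14 ± 2.005 CPM, and the potassium channel gene KCNF1 13.4-fold, FLACC1 12.8-fold and the stress-responsive chromatin protein gene NUPR1 10.6-fold. FLACC1 was 23.6-fold higher without T27 replicate 3, and NUPR1 17.3-fold higher without T27 replicate 1. MSMP, a small secreted protein, had 39.8, 67.8 and 75.9 CPM in the T29 libraries, against 14.99, 0.186 and 0.969 CPM in the T27 libraries. Its T27 level was set by replicate 1, and its rise was 11.2-fold with that library and 107.4-fold without it. C1QTNF3, a secreted relative of complement C1q, had 7.67, 4.17 and 7.58 CPM in the T29 libraries, against 0.875, 0 and 0.0668 CPM in the T27 libraries, and its rise was 19.8-fold. Without T27 replicate 1 the T27 libraries held 2 counts against 663 at T29, a ratio of 199.8 with a 95% counting interval of 55.1 to 1653.

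The steepest fall of a named gene was that of MSTN, myostatin, a secreted TGF-beta family member that restrains muscle growth in vertebrates. MSTN had 0.112, 0.112 and 0.0316 CPM in the T29 libraries, against 5.19, 9.44 and 14.8 CPM in the T27 libraries, a 108-fold fall (log2 change -6.75, SE 0.51; adjusted p = 7.59e-07) on 9 counts at T29 and 918 at T27. All 3 T29 libraries were near 0, T28 was already at 0.354 CPM, and at T30 it is listed at 0. It lies on the minus strand of sequence NC_046070.1 of the kPetMar1 assembly, from 14125411 to 14134986. GPR157, a receptor of the G protein-coupled class known from primary cilia of mouse neural progenitors, had 1.51, 1.71 and 1.705 CPM in the T29 libraries, against 11.7, 14.2 and 12.2 CPM in the T27 libraries, a 7.73-fold fall.

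The other named genes with the steepest falls were a mixture. APOC3, an apolipoprotein of plasma lipid particles, fell 7.43-fold to 8.89 ± 3.61 CPM, against 66.01 ± 15.1 CPM at T27. ACOD1, the itaconate-making enzyme of activated macrophages, fell 4.55-fold, the membrane-bending protein gene BIN1 6.64-fold, KLHL14 4.79-fold, CA10 4.25-fold, the cardiac T-box gene TBX20 3.65-fold and SYCP3, of the meiotic chromosome axis, 3.44-fold. Falls of 2.95-fold to 3.23-fold were measured for IGSF22, FAM163B, MUC8, DCST1, STXBP6 and ABCB11, the bile salt export pump. BIN1, CA10, TBX20, SYCP3, FAM163B, MUC8 and ABCB11 had under 1 CPM in the T29 mean, so few reads carry those values.

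**Figure D2:**
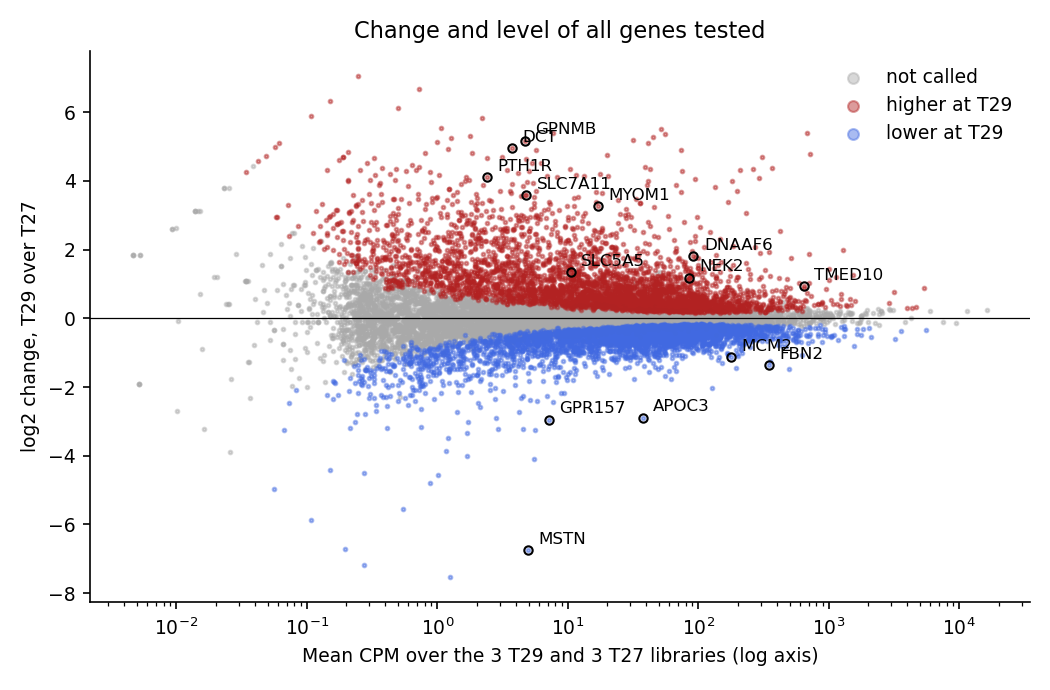
log2 change of T29 over T27 for each gene tested, against its mean CPM over the 6 libraries on a log axis; red genes rose, blue genes fell and grey genes were not called. The largest changes above 0 (565 genes over 4-fold) outnumber those below 0 (81), and MSTN stands alone among the labelled genes at the bottom.

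The hormone genes did not move as one. SLC5A5, the sodium iodide symporter that loads the cell with iodide, rose 2.55-fold, while IYD, which recovers iodide from iodotyrosines, was not called. Of 29 genes listed for hormone production 11 were tested, and 5 rose, 2 fell and 4 were not called. Of all genes tested 23.2% were higher and 23% lower, so the share of the list that fell was near that of all genes. The median log2 change of the list was 0.53, against −0.03 for all genes.

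SLC5A5 had 14.3, 17.01 and 14.1 CPM in the T29 libraries, against 6.97, 5.34 and 5.48 CPM in the T27 libraries (log2 change 1.35, SE 0.13; adjusted p = 1.33e-06), so that every T29 library was above every T27 library. DIO2, a deiodinase that converts thyroxine to its active form in vertebrates, had 1.4, 1.34 and 0.568 CPM in the T29 libraries, against 0.241, 0 and 0.0668 CPM in the T27 libraries. The groups did not overlap, but the T27 values rest on few reads, and the rise of 10.3-fold (SE 0.69 on the log2 scale) was 6.90-fold without T27 replicate 2. Without T27 replicate 1 the T27 libraries held 2 counts against 116 at T29, a ratio of 34.9 with a 95% counting interval of 9.46 to 292.

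LRP2, megalin, an endocytic receptor of epithelia that takes up thyroglobulin in the mammalian thyroid, had 18.9, 22.7 and 15.8 CPM in the T29 libraries, against 10.7, 7.64 and 9.65 CPM in the T27 libraries, a 2.05-fold rise (log2 change 1.04, SE 0.16). Its highest level of these 3 stages was at T28, at 27.8 CPM. ANO1, a chloride channel through which iodide can leave thyroid cells, rose 1.62-fold (log2 change 0.70, SE 0.20; adjusted p = 0.0102), a call lost without T27 replicate 3 (adjusted p = 0.0512). SLC5A8, a transporter of small monocarboxylates, fell to 2.23 ± 0.141 CPM, against 3.57 ± 0.488 CPM at T27. CTSB, a lysosomal protease that can cleave thyroglobulin, had 54.3, 50.3 and 63.01 CPM in the T29 libraries, against 87.9, 96.7 and 106 CPM in the T27 libraries, a 1.73-fold fall.

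Not called were IYD, at 40.9 ± 5.39 CPM at T29 and 40.6 ± 0.376 CPM at T27 (log2 change 0.01, SE 0.10), the lysosomal protease CTSD, at 229.8 ± 19.1 CPM at T29 and 223 ± 16.2 CPM at T27, the potassium channel KCNQ1 (log2 change 0.53, adjusted p = 0.0723) and the hormone carrier TTR, at under 1 CPM in each library. The IYD libraries of the 2 stages overlapped and their means differed by less than the SD at T29. KCNQ1 passed the threshold without T29 replicate 1 (log2 change 0.78, edgeR adjusted p = 0.00542), the lowest of its T29 libraries.

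Regulators of the thyroid and pharynx split evenly, as did all genes tested (23.2% higher and 23% lower). Of 8 tested, 3 rose (GATA3, PAX1 and SOX2), 3 fell (HHEX, PAX2 and ISL1) and PAX9 and FOXA2 were not called, with a median log2 change of 0.06. PAX1, a paired-box factor of the pharyngeal pouches, had 21.5, 20.4 and 15.1 CPM in the T29 libraries, against 6.33, 6.77 and 7.55 CPM in the T27 libraries (log2 change 1.47, SE 0.15; adjusted p = 2.21e-06). SOX2, which is expressed in foregut endoderm and in neural progenitors, had 103, 115 and 104 CPM in the T29 libraries, against 73.8, 54.1 and 61.9 CPM in the T27 libraries (log2 change 0.76, SE 0.11). Neither gene overlapped between the stages. GATA3, a zinc-finger factor with a role in the pharyngeal pouches and parathyroid, rose 3.15-fold at a low level, 1.66 ± 0.139 CPM at T29 and 0.526 ± 0.0373 CPM at T27.

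The 3 regulators that fell by T29 differed in T30 over T28. PAX2, a relative of the thyroid regulator PAX8, had 45.8, 48.3 and 42.99 CPM in the T29 libraries, against 83.4, 73.6 and 71.2 CPM in the T27 libraries, so its highest T29 library was well under its lowest T27 library (log2 change -0.73, SE 0.08; adjusted p = 5.54e-06). HHEX, a homeobox gene that the thyroid bud of mouse and zebrafish needs, had 71.2, 68.8 and 55.8 CPM in the T29 libraries, against 87.5, 83.4 and 82.9 CPM in the T27 libraries, a smaller fall without overlap (log2 change -0.37, SE 0.10; adjusted p = 0.00774). The HHEX call was lost in the test with a fold limit of 1.2 (adjusted p = 0.139). ISL1, a LIM homeobox gene of pharyngeal endoderm and its neighbours, had 38.8, 50.7 and 41.9 CPM in the T29 libraries, against 79.1, 85.5 and 79.5 CPM in the T27 libraries (log2 change -0.89, SE 0.10). T30 over T28 uses none of these 6 libraries but includes the step from T28 to T29. There, PAX2 was higher by 0.91 on the log2 scale (adjusted p = 1.94e-07) and HHEX by 0.48 (adjusted p = 0.000807). ISL1 was lower (-0.82), and part of that fall can lie before T29. The test that the changes before and after T29 differ gave edgeR adjusted p = 3.1e-07 for PAX2, 0.000283 for HHEX and 0.114 for ISL1. FOXA2, a pioneer factor of endoderm, had 69.95 ± 2.12 CPM at T29 and 74.3 ± 4.19 CPM at T27, and PAX9, of the pharyngeal pouches, 23.4 ± 4.198 CPM at T29 and 20.2 ± 2.22 CPM at T27.

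**Figure D3:**
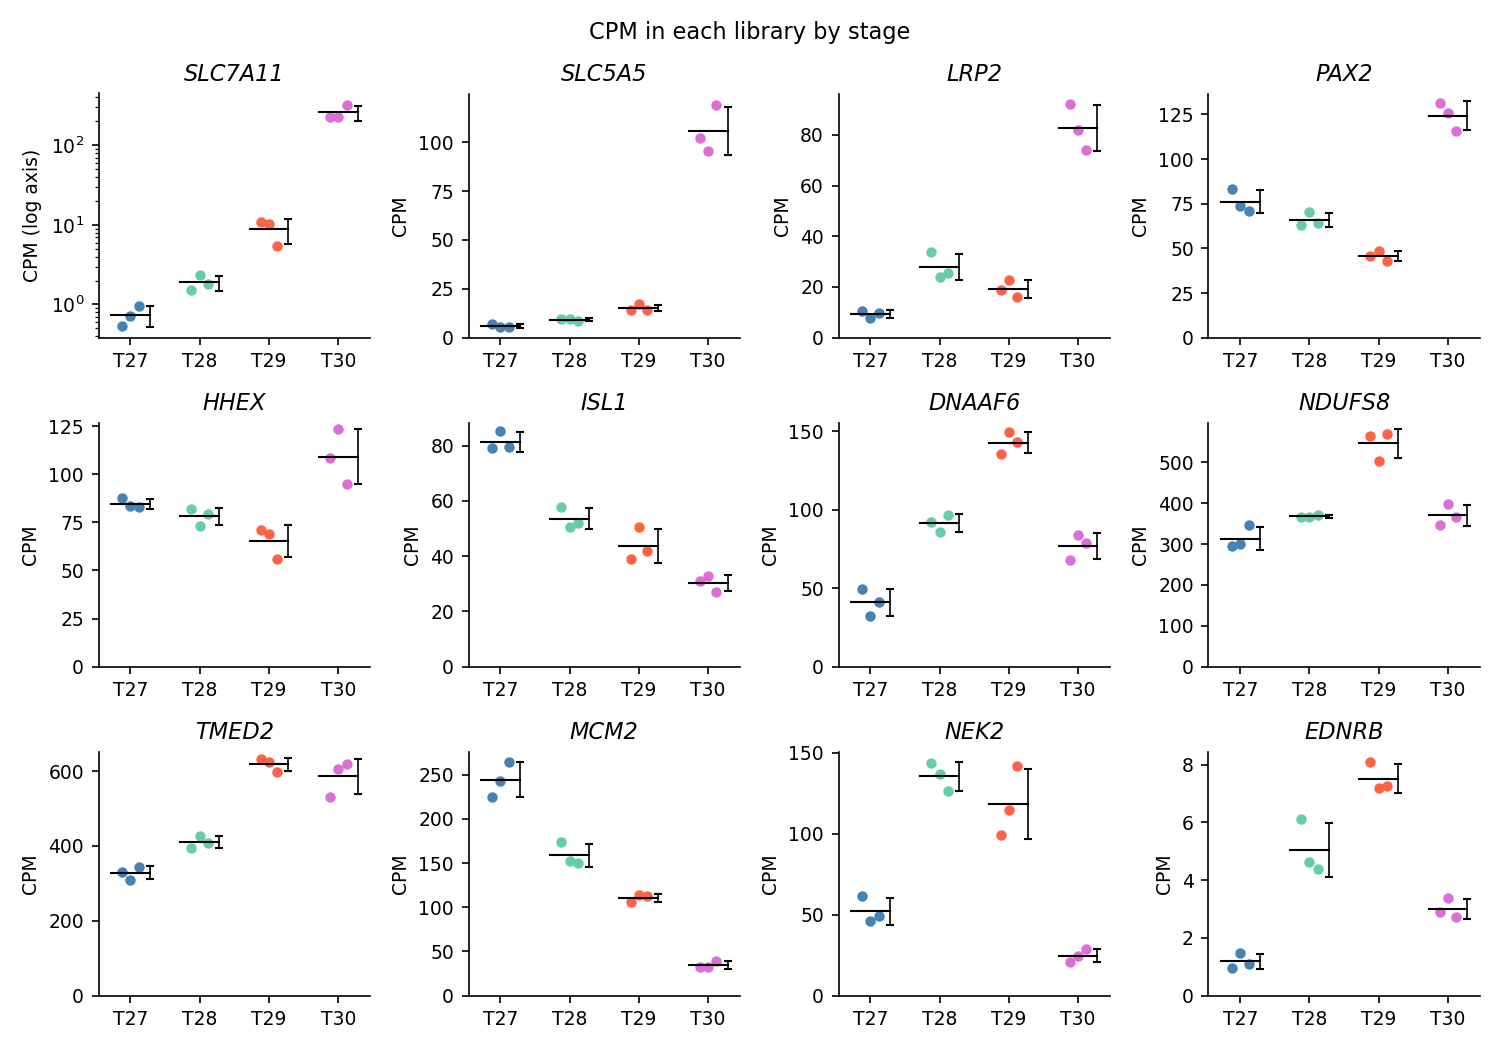
CPM in each library at T27, T28, T29 and T30 for 12 genes; dots are libraries, the horizontal line is the stage mean and the bar its SD (n = 3), and the SLC7A11 axis is a log axis. SLC7A11 and SLC5A5 rose before their high T30 level, PAX2 and HHEX were lowest at T29, and DNAAF6 and NDUFS8 were highest there.

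Genes of motile cilia rose almost as a block. The list covers axonemal dyneins, which slide the microtubule doublets, the factors that assemble them in the cytoplasm, radial spokes, central pair and other axonemal proteins, and transcription factors. Of 114 listed genes 78 were tested, and 71 rose, 1 fell and 6 were not called, against 23.2% of all genes higher and 23% lower. The median log2 change was 0.94, and the summed level of the list ran from 4831 to 5528 CPM over the T29 libraries and from 2407 to 3052 over the T27 libraries. Counts of risen members ran from 66 to 72 when T29 and T27 libraries were left out in turn.

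DNAAF6, a dynein assembly factor, had 136, 149.5 and 143 CPM in the T29 libraries, against 49.2, 32.4 and 41.1 CPM in the T27 libraries (log2 change 1.80, SE 0.12; adjusted p = 1.35e-07). DNAH3, an inner arm dynein heavy chain, had 52.1, 54.4 and 42.4 CPM in the T29 libraries, against 19.4, 11.5 and 12.8 CPM in the T27 libraries (log2 change 1.77, SE 0.19). In both genes each T29 library was above all T27 libraries. DNAH5, the outer arm heavy chain, had 131 ± 18.2 CPM at T29 and 53.6 ± 9.804 CPM at T27 (log2 change 1.28, SE 0.14), and DNAH9, its partner in the outer arm, had 79.6 ± 15.1 CPM at T29 and 37.3 ± 7.36 CPM at T27 (log2 change 1.09, SE 0.14). Radial spoke genes RSPH9, RSPH14 and RSPH3 rose 2.27-fold, 2.08-fold and 1.71-fold, and the central pair genes SPAG6, SPEF1 and HYDIN 2.02-fold, 2.92-fold and 1.71-fold. The assembly factor genes DNAAF2 and ZMYND10 rose 2.55-fold and 1.87-fold.

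MYB, a transcription factor that acts early in multiciliated cell formation in mouse and is also active in dividing progenitors, went the other way. It had 21.3, 26.9 and 26.9 CPM in the T29 libraries, against 52.7, 43.1 and 49.8 CPM in the T27 libraries, a 1.94-fold fall (log2 change -0.95, SE 0.11; adjusted p = 5.52e-06). Its T28 mean, 52.5 CPM, was still at the T27 level. The 6 members not called were LRRC6, DAW1, DRC7, STK36, KIF6 and CFAP300, of which DAW1 passed the threshold without T27 replicate 1 and DRC7 without T29 replicate 1 (edgeR adjusted p = 0.043 and 0.0433).

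Intraflagellar transport, the motor-driven traffic that builds and maintains cilia, moved the same way but less far. Of 33 members tested 23 rose, none fell by edgeR's adjusted test and 10 were not called, against 23.2% of all genes higher. The median log2 change was 0.41. IFT20, which links the Golgi to the cilium, had 73.01, 70.7 and 79.4 CPM in the T29 libraries, against 47.3, 40.8 and 48.6 CPM in the T27 libraries (log2 change 0.71, SE 0.08), and IFT52, of the core of the transport train, had 119, 119 and 121 CPM in the T29 libraries, against 79.5, 69.9 and 79.3 CPM in the T27 libraries (log2 change 0.65, SE 0.08). The stages did not overlap in either gene. IFT88 rose 1.496-fold, KIF3A, a subunit of the kinesin motor, 1.22-fold, and WDR35, of the retrograde complex, 1.36-fold. The KIF3A call was lost without T27 replicate 2 (edgeR adjusted p = 0.0706), and under the fold limit of 1.2 the count of risen members was 13.

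Cell division genes fell over the same interval. Of 53 DNA replication genes tested, 52 fell and none rose, with ORC3 the exception (log2 change -0.10, not called), and the median log2 change was −0.76. Of 50 genes of mitosis and cytokinesis 46 fell, with a median of −0.63, against 23% of all genes lower. The summed level of the replication list was 3409 to 3609 CPM over the T29 libraries and 5825 to 6548 over the T27 libraries. For the mitosis list it was 2986 to 3190 CPM at T29 and 4371 to 4644 at T27, again without overlap.

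Among genes that license replication origins, CDC6 had 9.69, 11.7 and 12.3 CPM in the T29 libraries, against 26.1, 25.2 and 27.9 CPM in the T27 libraries (log2 change -1.23, SE 0.11; adjusted p = 1.15e-06). MCM2, of the replicative helicase, had 106, 114 and 113 CPM in the T29 libraries, against 225, 243 and 264 CPM in the T27 libraries (log2 change -1.14, SE 0.09). Both lay lower at T29 in every library pair. The other helicase subunits MCM3, MCM4, MCM5, MCM6 and MCM7 fell 2.04-fold, 2.03-fold, 2.16-fold, 2.05-fold and 1.998-fold. At the fork, PCNA, the sliding clamp, fell 1.58-fold, the ligase gene LIG1 1.72-fold and POLE, the leading strand polymerase, 2.03-fold. CLSPN, which relays stalled fork signals, had 30.2 ± 1.12 CPM at T29 and 65.8 ± 4.34 CPM at T27.

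Among mitotic genes, NCAPG, a condensin subunit, had 10.8, 10.5 and 6.28 CPM in the T29 libraries, against 24.9, 22.7 and 19.5 CPM in the T27 libraries (log2 change -1.28, SE 0.20), and CENPC, which anchors the kinetochore, had 47.98, 50 and 41.1 CPM in the T29 libraries, against 82.8, 86 and 81.1 CPM in the T27 libraries (log2 change -0.84, SE 0.08). Neither gene overlapped between stages. PLK1, a kinase of mitotic entry, fell 1.45-fold, the spindle motor gene KIF11 1.596-fold and the cyclin gene CCNB2 1.51-fold. CENPW, CENPK and ZW10 were not called, and ZW10 was lower without T27 replicate 3 (edgeR adjusted p = 0.0248).

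NEK2, a kinase that separates centrosomes in mitosis, was the 1 mitotic member that rose. It had 99.03, 115 and 142 CPM in the T29 libraries, against 61.6, 45.8 and 49.3 CPM in the T27 libraries (log2 change 1.18, SE 0.14; adjusted p = 1.19e-05), with no overlap. It stood at 136 CPM at T28 and at 24.8 CPM at T30, and its T28 mean was above the mean of T29 and T27 by 0.79 on the log2 scale (adjusted p = 0.00244). In T30 over T28 it was lower (-2.45), as were 49 of the 50 mitotic genes tested.

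Genes of the endoplasmic reticulum (ER) and of secretory export rose in part. Of 61 tested, 34 rose, 5 fell and 22 were not called, against 23.2% of all genes higher and 23% lower. The median log2 change was 0.25. The largest rises were those of cargo receptors that cycle between the ER and Golgi. TMED10 had 865, 832 and 821 CPM in the T29 libraries, against 440.4, 399.7 and 481 CPM in the T27 libraries (log2 change 0.93, SE 0.09; adjusted p = 1.33e-06), and TMED2, its partner, had 631, 625 and 597 CPM in the T29 libraries, against 329.6, 309.8 and 345 CPM in the T27 libraries (log2 change 0.91, SE 0.08). The T29 libraries were tight and well above T27 in both. CREB3L1, a membrane-bound transcription factor that drives secretory capacity, had 78.03, 71.96 and 69.9 CPM in the T29 libraries, against 43.3, 36.7 and 38.9 CPM in the T27 libraries (log2 change 0.89, SE 0.08).

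Chaperones of the ER gave a mixed picture. DNAJB11, a co-chaperone, rose 1.59-fold, the disulfide isomerase genes PDIA5, PDIA4, PDIA3 and P4HB rose 1.55-fold, 1.33-fold, 1.32-fold and 1.29-fold, and MANF, a stress-induced ER protein, 1.52-fold. The main chaperones HSPA5, at 894 ± 4.96 CPM at T29 and 902 ± 49.1 CPM at T27, and HSP90B1, at 689 ± 8.04 CPM at T29 and 756 ± 81.7 CPM at T27, were not called. SEC61A1, SEC61B and SEC61G, the subunits of the translocation channel, rose 1.27-fold, 1.37-fold and 1.38-fold. The falls, of SPCS2, SURF4, SRP68, SPCS3 and SEC24B, were between 1.17-fold and 1.27-fold, and those of SPCS2, SURF4 and SEC24B were lost without T29 replicate 1 (edgeR adjusted p = 0.112, 0.093 and 0.0805) and without other single libraries. When T29 and T27 libraries were left out in turn, 26 to 36 members rose, 29 of them without T27 replicate 1, and 17 rose under the fold limit of 1.2.

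Of 9 mucus and glandular genes tested 5 rose, or 4 without T27 replicate 1, and 4 were not called, against 23.2% of all genes higher. Among them were 4 GALNT genes, whose enzymes start the O-linked sugar chains of mucins. GALNT3 had 90.99, 85.1 and 81.9 CPM in the T29 libraries, against 37.4, 32.04 and 35.2 CPM in the T27 libraries (log2 change 1.30, SE 0.08; adjusted p = 9.23e-08), with no overlap, and GALNT2 rose 1.35-fold. SYTL2, which tethers secretory granules, rose 1.32-fold.

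Of 51 lysosomal and endocytic genes tested 20 were higher and 6 lower, against 23.2% of all genes higher and 23% lower. Their median log2 change was small, 0.11, and 16 were higher without T27 replicate 1. Subunits of the proton pump that acidifies the lysosome, ATP6V0B, ATP6V0C, ATP6V1A and ATP6V1D, rose 1.298-fold, 1.44-fold, 1.202-fold and 1.33-fold. The ATP6V1A call was lost without T27 replicate 2 (edgeR adjusted p = 0.151), in the replicate block (0.0566) and without other single libraries. TPP1, a peptidase, rose 1.35-fold. Besides CTSB, LGMN, the asparagine endopeptidase legumain, fell 1.502-fold, with 379.6, 433 and 518 CPM in the T29 libraries, against 615, 638 and 745 CPM in the T27 libraries. LRP1, a broad endocytic receptor related to LRP2, fell 1.43-fold.

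Nuclear genes of the respiratory chain rose together by small amounts. Of 57 tested, 47 rose, none fell and 10 were not called in edgeR's test, against 23.2% of all genes higher. The median log2 change was 0.35. Their summed level was 10990 to 12510 CPM over the T29 libraries and 8439 to 10050 over the T27 libraries. NDUFS8, an iron-sulfur subunit of complex I, had 565, 504 and 569 CPM in the T29 libraries, against 294, 299.7 and 347 CPM in the T27 libraries (log2 change 0.80, SE 0.08; adjusted p = 3.98e-06), the largest rise of the list. COX4I1, of cytochrome c oxidase, had 715, 621 and 709.8 CPM in the T29 libraries, against 475, 443 and 524 CPM in the T27 libraries (log2 change 0.50, SE 0.09). CYC1, of complex III, rose 1.37-fold, and ATP5F1B, the catalytic subunit of ATP synthase, 1.27-fold.

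The count of risen members depended on the libraries and on the test. It ran from 36 to 53 when T29 and T27 libraries were left out in turn, with 42 without T27 replicate 1, and 16 members rose under the fold limit of 1.2. Many of these genes are short. The 1226 genes tested with exons under 1000 bp had a median log2 change of 0.07, with 20.0% higher and 12.7% lower. The 13 genes of the mitochondrial genome had log2 changes between 0.09 and 0.32, with a median of 0.23, and 1 of them rose. Of the 72 cytosolic ribosomal protein genes, which are short too, 5 rose, against 23.2% of all genes, with a median of 0.11. That count was 18 without T27 replicate 3 and 1 without T27 replicate 2, and the acidic stalk gene RPLP2, at 452 ± 42.9 CPM at T29 and 294 ± 38.8 CPM at T27, was the clearest of them.

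Amino acid and one-carbon genes moved both ways. Of 29 tested 11 rose and 7 fell, or 9 and 5 without T27 replicate 1, with a median log2 change of 0.13. Of all genes tested 23.2% were higher and 23% lower, so the share of the list that fell was near that of all genes. Under the fold limit of 1.2, 6 members rose and 2 fell. The largest rises of the list were those of SLC7A11, given above, SLC7A9 and CDO1. SLC7A9, the light chain of a cystine and basic amino acid transporter, had 14.1, 12.7 and 8.52 CPM in the T29 libraries, against 2.62, 1.24 and 1.77 CPM in the T27 libraries (log2 change 2.65, SE 0.23). CDO1, which oxidises cysteine, had 116, 66.3 and 94.9 CPM in the T29 libraries, against 46.4, 33.5 and 39.5 CPM in the T27 libraries (log2 change 1.21, SE 0.16). CTH, which makes cysteine from cystathionine, rose 1.56-fold, and SLC3A2, the heavy chain partner of SLC7A11, 1.35-fold. No overlap was seen for SLC7A9 or CDO1. GCLC, which uses cysteine in the first step of glutathione synthesis, fell 1.29-fold, and SLC7A10, a transporter of small neutral amino acids, fell 1.61-fold. The SLC7A10 call was lost without T27 replicate 1 (edgeR adjusted p = 0.0824) and without other single libraries.

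In the glycine cleavage system AMT rose 1.79-fold, GLDC 1.496-fold and DLD 1.27-fold. Among folate enzymes, MTHFD1 had 75.5, 72.1 and 77.7 CPM in the T29 libraries, against 126, 138 and 147 CPM in the T27 libraries (log2 change -0.87, SE 0.08; adjusted p = 9.56e-07), SHMT1 fell 1.51-fold, SHMT2 1.24-fold and MTR, methionine synthase, 1.29-fold. PSAT1, of serine synthesis, fell 1.48-fold (adjusted p = 0.0217), a call lost without T27 replicate 1 (adjusted p = 0.0984), without T29 replicate 3 (0.0878), under the fold limit of 1.2 (0.076) and in the fit of both stages alone (0.0567). In T30 over T28 PSAT1 was higher, by 1.98 on the log2 scale.

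In lipid synthesis, some fatty acid enzymes rose and some sterol enzymes fell. Of 22 genes tested 4 rose and 10 fell, or 6 without T27 replicate 3, without T29 replicate 1 or without T29 replicate 3. Of all genes tested 23.2% were higher and 23% lower. ELOVL5, which lengthens polyunsaturated fatty acids, had 30.9, 32.1 and 31.5 CPM in the T29 libraries, against 15.8, 11.2 and 12.4 CPM in the T27 libraries (log2 change 1.26, SE 0.13), FADS2, a desaturase, rose 1.57-fold, and FASN, fatty acid synthase, 1.52-fold. The sterol gene DHCR7, of the last step to cholesterol, had 11.1, 12.4 and 9.85 CPM in the T29 libraries, against 20.03, 24.2 and 21.7 CPM in the T27 libraries (log2 change -0.98, SE 0.13), MVD fell 1.62-fold, TM7SF2 1.48-fold and EBP 1.34-fold.

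Developmental signalling genes mostly fell where they changed. Of 143 listed genes 41 were tested, and 4 rose, 21 fell and 16 were not called, with a median log2 change of −0.43. Of all genes tested 23.2% were higher and 23% lower. The rises were of the ligand genes WNT4 and WNT10A, the receptor gene TGFBR2 and LGR5, which potentiates WNT signals. WNT10A had 31.1, 27.6 and 31.3 CPM in the T29 libraries, against 13.3, 12.5 and 10.1 CPM in the T27 libraries (log2 change 1.33, SE 0.12; adjusted p = 1.02e-06), and WNT4 had 17.5, 19.2 and 14.9 CPM in the T29 libraries, against 8.45, 6.77 and 5.28 CPM in the T27 libraries (log2 change 1.33, SE 0.16). Both were higher in each T29 library. WNT1, a ligand of the same family, fell to 3.99 ± 0.764 CPM, against 8.38 ± 1.25 CPM at T27.

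The steepest falls were of FGFR2, a receptor for fibroblast growth factors, and FST, follistatin, which binds and blocks activin and myostatin. FST had 14.5, 13.6 and 16.2 CPM in the T29 libraries, against 36.6, 36.9 and 47.1 CPM in the T27 libraries (log2 change -1.45, SE 0.13; adjusted p = 8.32e-07), and FGFR2 had 24.4, 26.7 and 32.7 CPM in the T29 libraries, against 64.8, 72.03 and 87.8 CPM in the T27 libraries (log2 change -1.42, SE 0.13). The stages were well separated in both. Secreted WNT inhibitors SFRP2, SFRP5 and NOTUM fell 1.93-fold, 1.84-fold and 1.53-fold. The NOTUM call was lost without T27 replicate 3 (edgeR adjusted p = 0.0603). In the Hedgehog pathway the signal transducer SMO fell 1.69-fold and the ligand-binding HHIP 1.43-fold, and JAG1, a Notch ligand, 1.83-fold.

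Matrix genes fell more often than they rose, 15 against 5 of 28 tested, with a median log2 change of −0.33. Of all genes tested 23% were lower and 23.2% higher, so the share of the list that rose was below that of all genes. FBN2, the fibrillin of embryonic microfibrils, had 172, 201 and 205 CPM in the T29 libraries, against 511, 509.8 and 472 CPM in the T27 libraries (log2 change -1.37, SE 0.09; adjusted p = 1.28e-07). MMP2, a gelatin-cleaving protease of mesenchyme, had 5.21, 4.78 and 4.89 CPM in the T29 libraries, against 9.44, 11.6 and 11.5 CPM in the T27 libraries (log2 change -1.13, SE 0.13). Neither overlapped. Of type VI collagen, COL6A1, COL6A2 and COL6A3 fell 1.27-fold, 1.47-fold and 1.896-fold, PDGFRA, a receptor of mesenchymal cells, 1.95-fold, and SPARC 1.61-fold. The COL6A1 call was lost on leaving out any single library except T27 replicate 1 or T29 replicate 3, with edgeR adjusted p of up to 0.201 without T29 replicate 2. The 5 that rose were COL17A1, a hemidesmosome collagen of epithelia, 1.71-fold, COL22A1 1.602-fold, POSTN, periostin, a matrix protein of connective tissue, 1.41-fold, COL4A6, of basement membrane, 1.35-fold, and FBLN2, a fibulin, 1.25-fold.

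Markers of other cell types moved too, and their part in the results above was not tested. Of 14 pigment cell genes tested 7 rose, 1 fell and 6 were not called, against 23.2% of all genes higher and 23% lower. Those that rose included enzymes of melanin synthesis and melanosome proteins, while HPS4, of the machinery that builds lysosome-related organelles, fell 1.55-fold. DCT, of melanin synthesis, had 7.51, 7.81 and 6.41 CPM in the T29 libraries, against 0.452, 0.155 and 0.0668 CPM in the T27 libraries (log2 change 4.96, SE 0.32), and GPNMB, a melanosome and macrophage protein, had 8.96, 9.205 and 9.28 CPM in the T29 libraries, against 0.483, 0.186 and 0.0668 CPM in the T27 libraries (log2 change 5.17, SE 0.31). T27 was near 0 in both, and without T27 replicate 1 their folds were 62.3 and 69.2, against 31.02 and 35.97 with it. TYRP1 had 1.76, 2.52 and 2.02 CPM in the T29 libraries, against 0.121, 0 and 0 CPM in the T27 libraries, on 217 counts at T29 and 4 at T27, all 4 in replicate 1. PMEL, the fibril protein of melanosomes, rose 10.2-fold and TYR, tyrosinase, 8.35-fold. The summed level of the list was 65.3 to 71.8 CPM over the T29 libraries and 38.8 to 42.2 over the T27 libraries.

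Of 19 muscle genes tested 15 rose and none fell in edgeR's test (1 fell without T27 replicate 1), against 23.2% of all genes higher. Their median log2 change was 1.91, and their summed level was 650.6 to 859.8 CPM at T29, against 255.8 to 294.1 at T27. MYOM1, of the sarcomere's M band, had 30.9, 24.2 and 37.4 CPM in the T29 libraries, against 5.73, 1.96 and 1.87 CPM in the T27 libraries (log2 change 3.26, SE 0.39), 16.1-fold without T27 replicate 1, against 9.6-fold with it. NEB, nebulin, had 29.1, 27.9 and 31.4 CPM in the T29 libraries, against 8.14, 2.58 and 4.68 CPM in the T27 libraries (log2 change 2.52, SE 0.37), and ACTN2, of the Z disc, had 191, 155 and 191 CPM in the T29 libraries, against 51.7, 35.3 and 39.9 CPM in the T27 libraries (log2 change 2.08, SE 0.22). Each rose with no overlap. MSTN, described above, fell while these rose. PAX7, of muscle stem cells and neural crest, and MYMK, of myoblast fusion, were not called.

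Among 8 neural crest markers tested, 2 rose and 3 fell, with a median log2 change of −0.06. Of all genes tested 23.2% were higher and 23% lower. EDNRB, an endothelin receptor of crest and pigment cells, had 8.09, 7.19 and 7.26 CPM in the T29 libraries, against 0.965, 1.49 and 1.103 CPM in the T27 libraries (log2 change 2.66, SE 0.20; adjusted p = 2.66e-07). Its groups were far apart. PRRX1, of mesenchyme, had 30.3, 26.9 and 48.1 CPM in the T29 libraries, against 77.5, 89.5 and 135 CPM in the T27 libraries (log2 change -1.52, SE 0.22), and ALX1 fell 1.72-fold, LMO4 1.37-fold.

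Neuronal markers split as well, 6 higher and 4 lower of 16 tested, against 23.2% of all genes higher and 23% lower. The share of these markers that fell was near that of all genes. With T29 and T27 libraries left out in turn, 5 to 6 rose and 2 to 4 fell. TPH1, which makes the serotonin precursor, had 4.48, 5.32 and 2.97 CPM in the T29 libraries, against 0.845, 0.248 and 0.367 CPM in the T27 libraries (log2 change 3.11, SE 0.44), and DDC, the next enzyme of that path, had 17.8, 20.8 and 11.8 CPM in the T29 libraries, against 4.98, 5.31 and 3.98 CPM in the T27 libraries (log2 change 1.82, SE 0.21). Neither overlapped, and TPH1 rose 13.8-fold without T27 replicate 1. STX1A, of synaptic and endocrine vesicle fusion, rose 5.05-fold at 0.97 ± 0.154 CPM. CHAT, of acetylcholine synthesis, fell 3.602-fold, or by 2.79 on the log2 scale without T29 replicate 2 against 1.85 with it, and NCAM1, a neural adhesion protein, fell 1.74-fold, with 110.3 ± 6.77 CPM at T29 and 191 ± 4.69 CPM at T27. Of 3 glia genes tested GLUL, glutamine synthetase, rose 1.84-fold and CNP fell 1.31-fold. The CNP call was lost without T27 replicate 3 (adjusted p = 0.0865), without T29 replicate 1 (0.07996) and without T29 replicate 2 (0.0637).

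Blood, vessel and plasma genes are few in these lists, and their counts stand beside 23% of all genes lower. Of 4 leukocyte genes 2 fell, ACOD1, given above, and ALOX5, of leukotriene synthesis, with 9.05, 7.44 and 7.89 CPM in the T29 libraries, against 14.2, 14.1 and 14 CPM in the T27 libraries (log2 change -0.79, SE 0.12). Of 8 erythroid genes FECH and UROD, of haem synthesis, fell 1.204-fold and 1.28-fold, and of 6 endothelial genes SOX7 and FLT1 fell 1.45-fold and 1.27-fold. The SOX7 call was lost without T27 replicate 1 (edgeR adjusted p = 0.111). Without T27 replicate 3 or T29 replicate 1 no endothelial gene was called in edgeR's test, and 1 erythroid gene was. The FECH call was lost without T27 replicate 3 (edgeR adjusted p = 0.201) and without most other single libraries. It was also lost with RLE scaling (edgeR adjusted p = 0.051). Of 13 plasma protein genes 4 rose and 4 fell, against 23.2% of all genes higher and 23% lower. Besides APOC3, CETP, a lipid transfer protein, fell 2.67-fold and F2, prothrombin, 1.598-fold. The 4 rises, of FGB, ITIH2, RBP4 and HPX, were each lost without T27 replicate 2 and without T29 replicate 1, among other single libraries, with edgeR adjusted p of up to 0.181 for HPX, without T27 replicate 3. Among 4 cartilage genes COL9A1 fell 1.93-fold.

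Of 6 epithelial genes ESRP1 and GRHL2 rose by 1.21-fold and 1.16-fold and OVOL2 fell 1.29-fold, all small changes. The calls of GRHL2 and OVOL2 were lost without T29 replicate 1 (edgeR adjusted p = 0.139 and 0.175) and without other single libraries. Of 5 gill and ionocyte genes BSND, a chloride channel subunit, rose 2.39-fold, SLC12A2, a sodium, potassium and chloride cotransporter, 1.21-fold, and ATP1B1 fell 4.04-fold at 0.255 ± 0.053 CPM, against 1.03 ± 0.371 CPM at T27. Of 7 stress genes the small heat shock protein HSPB1 rose 3.56-fold and the mitochondrial enzyme SOD2 1.48-fold. HSPE1 was higher by 1.15-fold, a call lost without T27 replicate 1 (adjusted p = 0.0757) or any of 3 other libraries, and 4 were not called. Of all genes tested 46.2% changed, near the 42.9% of the stress list and the 50% of the epithelial list. Over the 28 lists, 467 of 709 genes changed, 279 higher and 188 lower, against 23.2% of all genes higher and 23% lower. With the fold limit of 1.2 it was 329, and the loss lay in lists with small changes: 9 lysosomal genes and 6 amino acid genes rose, 4 lipid genes fell, and no epithelial, erythroid or endothelial gene was called.

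**Figure D4:**
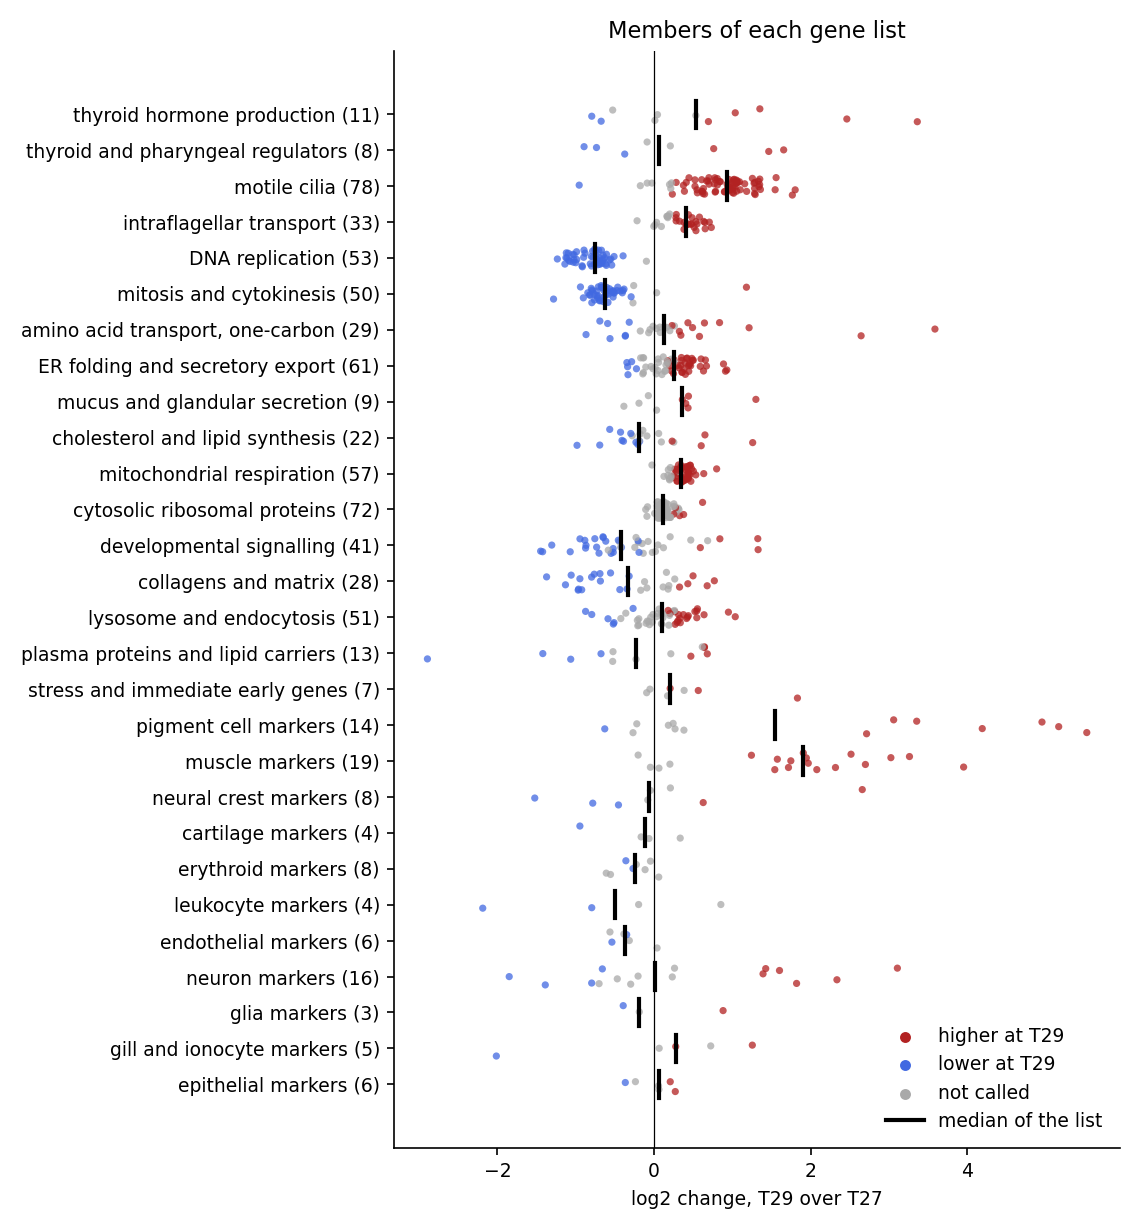
log2 change of T29 over T27 of each tested member of the 28 lists, with the number of members in brackets; red members rose, blue fell, grey were not called, and the black bar is the median of the list. Motile cilia and muscle markers lie almost wholly above 0 (medians 0.94 and 1.91), DNA replication and mitosis almost wholly below (−0.76 and −0.63).

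T28 lay between the 2 stages for most of the genes that changed between them. Its mean CPM fell between the T29 and T27 means for 6707 of the 7640 genes that changed (87.8%). The test of T28 against the mean of T29 and T27 called 509 genes (3.08%), 363 (2.2%) with T28 above that mean and 146 (0.883%) with T28 below it. The count was 234 without T28 replicate 2, 241 without T28 replicate 1, 300 without T27 replicate 3 and 324 without T27 replicate 2, and 889 by DESeq2. Among those above, DCT was at 5.26 CPM at T28, above the log2 mean of T29 and T27 by 2.02 (adjusted p = 0.000271), and TYRP1 by 2.37, or 4.16 without T27 replicate 1. SLC5A5, with 9.73, 9.41 and 8.55 CPM in the T28 libraries, was not called (-0.04).

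Of T27, T28 and T29, some genes were highest at T28. HPX, hemopexin, a plasma carrier of haem, had 76.04, 77.6 and 73.8 CPM in the T28 libraries, against means of 26.8 CPM at T29 and 19.3 at T27 (T28 above the log2 mean by 1.73, adjusted p = 4.7e-05). DRD2, a dopamine receptor, had 3.04, 2.16 and 2.28 CPM at T28, with means of 0.905 at T29 and 0.646 at T27. SLC28A3, a nucleoside transporter, was at 2.99 CPM at T28, 1.61 at T29 and 0.401 at T27, but it was higher still at T30, at 9.03 CPM. For TNFRSF17, a receptor of B cells in mammals, the T28 libraries had 41.1, 135 and 12.2 CPM. Its T28 replicate 2 stood far from the rest, and without it the difference was 0.56 (adjusted p = 0.573), against 1.79 with it. Leaving out most other single libraries lost the call too.

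Others lay below the log2 mean of T29 and T27 at T28, with a clear trough in LDLRAD2 and SPATA1. LDLRAD2 had 3.17, 2.27 and 2.81 CPM in the T28 libraries, with means of 8.38 at T29 and 7.13 at T27 (T28 below the log2 mean, -1.49, adjusted p = 7.98e-05). SPATA1 had 0.928, 0.932 and 0.769 CPM at T28, with means of 2.92 and 2.61 at T29 and T27. PCBD1, a cofactor recycling protein and partner of HNF1 factors, was at 13.1 CPM at T28, 17.7 at T29 and 28.6 at T27. Its change from T28 to T29 was not called (edgeR adjusted p = 0.0591). BOLL, ALPL and CCT6A were also below the log2 mean at T28 (-1.10, -0.92 and -0.82), but without a clear trough. BOLL was at 0.933, 0.791 and 3.09 CPM at T27, T28 and T29. Its T28 over T27 change was not called (edgeR adjusted p = 0.582). From T28 to T29 neither ALPL nor CCT6A was called (edgeR adjusted p = 0.719 and 0.217). The calls of BOLL, ALPL and CCT6A off the mean were each lost without T28 replicate 2, at edgeR adjusted p of 0.152, 0.0737 and 0.222, and without other single libraries.

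By their median over genes, the changes before T29 were smaller than those after it. The median absolute log2 change was 0.34 between T29 and T27 and 0.47 between T30 and T29, though the first spans 2 steps between stages and the second 1, and both use the T29 libraries. Between T30 and T29 9973 genes (60.3%) changed. The test of the difference between the later and the earlier change called 6706 genes (40.6%), 2924 (17.7%) with the later change more positive and 3782 (22.9%) with it more negative. Of these, 4380 had the larger absolute change after T29 and 2326 before it. NDUFS8 and DNAAF6 were among the 2326 with the larger change before T29, and both turned down after it. NDUFS8, at 546 ± 36.5 CPM at T29, was at 369.8 ± 26.7 CPM at T30 (edgeR adjusted p of the difference 8.87e-06). DNAAF6, at 143 ± 6.93 CPM at T29, was at 76.9 ± 8.04 CPM at T30 (edgeR adjusted p 5.68e-07).

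T30 against T28, the other pair of stages 2 apart, shares no library with T29 against T27. Both pairs span the step from T28 to T29, so a change in that step counts in both. It called 10366 genes (62.7%), 5231 (31.7%) higher at T30 and 5135 (31.1%) lower. Of the 3831 genes that rose by T29, 2233 (58.3%) were also higher at T30 than at T28 and 548 (14.3%) were lower. Of the 3809 that fell, 2269 (59.6%) were lower and 432 (11.3%) higher. These shared genes made up 42.7% of those higher and 44.2% of those lower in T30 over T28. Across genes the 2 sets of log2 changes had Pearson's r of 0.46 and Spearman's rho of 0.41, a description over genes, which are not independent.

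The lists also differed in T30 over T28, which includes the step from T28 to T29. There, replication genes were lower in 53 of 53 and cilia genes higher in 53 of 78 and lower in 4. The respiratory chain genes, of which 47 of 57 had risen by T29, were lower in 38 and higher in none, with a median log2 change of −0.28 in T30 over T28. Secretory genes were higher in 28 and lower in 19 of 61, and hormone genes higher in 8 of 11 and lower in 1. Of all genes tested 31.7% were higher and 31.1% lower in T30 over T28, so the share of secretory genes that was lower was near that of all genes. Amino acid genes, with a median of 0.13 by T29, had a median of 1.14 in T30 over T28, with 17 of 29 higher and 5 lower. From T29 to T30 alone, the median log2 change was −1.35 for replication, 0.32 for cilia and −0.50 for respiratory chain genes. It was 0.98 for hormone and 0.92 for amino acid genes, and −0.11 for secretory genes, against 0.10 in T30 over T28. SLC5A5, at 15.2 ± 1.61 CPM at T29, reached 106 ± 12.2 CPM at T30, and SLC7A11, at 8.85 ± 3.04 CPM at T29, reached 259.5 ± 57.02 CPM.

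**Figure D5:**
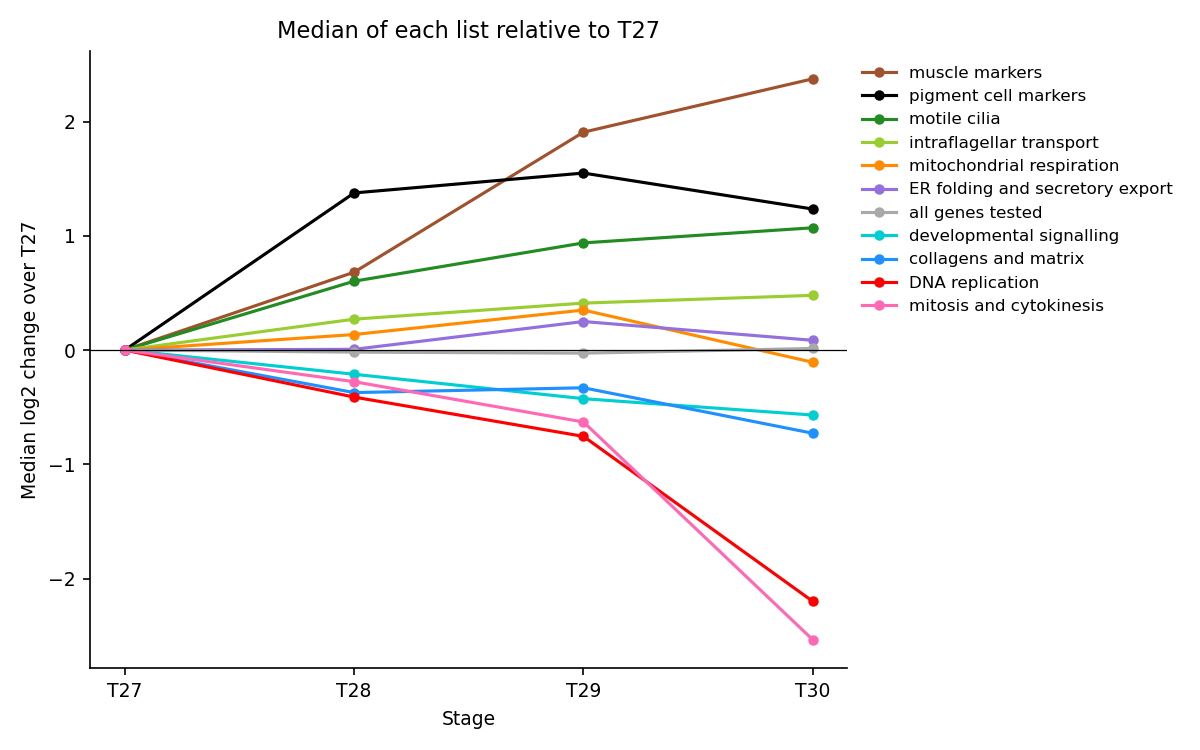
Median log2 change over T27 of the members of 10 lists and of all genes tested, at T28, T29 and T30; lines join the stages and T27 is 0 by construction. Respiration (0.35 at T29, −0.11 at T30) and secretory genes (0.25 and 0.09) peaked at T29, while replication (−0.76 and −2.20) and mitosis (−0.63 and −2.54) fell further after it.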

How the data were processed

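RNA of wild-type sea lamprey endostyle had been sequenced in 12 libraries, 3 per stage at T27, T28, T29 and T30, and grouped here by the stage in each label. The authors deposited raw counts per gene. Per the file headers these were made with featureCounts 1.6.3 on the kPetMar1 annotation from first-read files, with none of the options for strand, read pairs or multiple mapping, and the gene positions and exon lengths come from that table. The submitters' processing notes also name Bowtie2 and DESeq2, without version, setting or role, and nothing used here describes trimming. Reads of overlapping genes on opposite strands cannot be told apart, and members of multigene families (ribosomal proteins, collagens, myosins, dyneins) are less certain. A second deposited table, of standardised scores, was not used here.

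Of 21967 rows, 2171 had no count and 2061 are tRNA genes; 5919 carry a symbol and 678 locus rows took one by gene ID from the RefSeq table of assembly UKy_Petmar_22M1.pri1.0, another build, used for names alone. Genes were kept with filterByExpr by stage (minimum count 10), scaled by TMM, and fitted with edgeR 4.0.16 (R 4.3.3) to the 12 libraries together (8 residual degrees of freedom, common dispersion 0.0154, biological coefficient of variation 12.4%). SE is the absolute log2 change over the square root of F. The p-values were Benjamini-Hochberg adjusted over all 16526 genes, threshold 0.05. The script was tested on simulated data. Alternatives were DESeq2 1.42.0, limma-voom (limma 3.58.1), other scalings and filters, a fold limit of 1.2, a replicate block and leaving out each library. Genes named are the 15 with the highest and 15 with the lowest log2 change among named genes that changed, had a mean of at least 1 CPM and did not overlap, the 6 at each end of the T28 test, hormone and regulator genes, and members of the other lists by size or as examples of a role. The comparison, members and lists were chosen with earlier results of these data known, and no list was tested as a set. A few list members are counted but not reported here by name. Precision is lower for genes under 1 CPM, which rest on few reads.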

Additional observations from a re-analysis of the deposited data

How the results depend on the processing

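The count of genes that changed between T29 and T27 stayed within 1.5 times of 7640 under all alternatives except the fold limit of 1.2 (4724), and was 6457 to 7842 when each library was left out. Genes with T28 off the mean of T29 and T27, 509 as reported, numbered 889 with DESeq2 and 234 to 744 with libraries left out, with 324 without T27 replicate 2, 300 without T27 replicate 3, 241 without T28 replicate 1 and 234 without T28 replicate 2. T30 against T28 gave 9456 to 10575 genes and the difference of the later and earlier change 5294 to 6977 with libraries left out. Of the list members, 407 to 474 changed with libraries left out, against 467. With the replicate block 7432 genes changed between T29 and T27. Same-numbered T29 and T27 libraries deviated with correlations of 0.093, 0.044 and 0.241, and the others with -0.159 to 0.094. T29 replicates 1 and 3 correlated best with the T27 library of their number, and T29 replicate 2 with T27 replicate 1. These values do not settle whether the numbers pair the samples. The labels do not say so, and pairing was not assumed. Over 273 gene values and 22 alternatives, 5711 kept their side of the threshold, 265 lost the call and 7 gained it (those of KCNQ1, DAW1, DRC7 and ZW10). The sign changed in 17 of these values, of 9 genes, none of them called in either fit. Genes under 1 CPM at T27, such as TYRP1, ERMN and C1QTNF3, are limited by depth in the size of their folds, not in direction.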
